A study of Mus musculus with 3 samples.

Results

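The regions described here are 5-hydroxymethylcytosine (5hmC) peaks that lie just outside genes. They are the distinct peak intervals on the 19 autosomes whose midpoint is outside every protein-coding gene and more than 500 and at most 5000 bp from the nearest gene end; "flank" means this stretch throughout. The rule picked 16842 peaks of 207188 on autosomes and 208468 in all, or 8.13% of autosomal peaks (Wilson interval 8.01 to 8.25%). The series holds 3 samples of mouse bone marrow cells, 1 of normal marrow (normal BM) and 2 of an acute myeloid leukaemia (NIDF-AML). The leukaemia was induced by 4 mutations together: DNMT3A/R882H, FLT3-ITD, NPMc and IDH2/R140Q. The sources used here do not state the mouse strain, the promoters that drove these alleles, the number of animals or the host cells left in the marrow. Captured 5hmC fragments were sequenced, and the peak lists attached to the 2 leukaemia samples were used. Their 223267 lines were the same in both (100%), so they counted as 1 list. In both headers the treatment is index 4, and the only difference is the control, index 5 or 6. No source used here says which sample carries index 4, so the values describe "the index 4 library" and no comparison of leukaemia with normal marrow was made. With 1 list and no score or depth per peak, no value has a replicate and no test was possible. The 95% intervals cover counting error alone and take each peak as an independent count.

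5hmC is made when TET enzymes oxidise 5-methylcytosine, mostly at CpG dinucleotides. In mammalian cells it is known to gather in the bodies of active genes and at enhancers and to be low at the unmethylated CpG islands where many genes start. The near flanks of genes hold the sequence around the core promoter on the upstream side, often with nearby enhancers, and the stretch past the last exon on the downstream side. IDH2 mutants such as R140Q make 2-hydroxyglutarate, which inhibits TET enzymes, and that is the background to mapping 5hmC in this leukaemia.

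Some flank peaks fell on small non-coding genes whose sequence is known, and these show what a peak covers. Of 57 microRNA hairpins that lie wholly in the flank, 6 (10.5%) were overlapped by a peak. All 6 lay downstream of their nearest protein-coding gene, as did 33 of the 57 hairpins, with 19 upstream and 5 beside a gene of unknown strand. The hairpins are printed 5′ to 3′ from RefSeq (GRCm38.p6), and capitals mark the bases inside the peak.
Mir210 (chr7:141221384-141221493, minus strand, 2734 bp past Rassf7): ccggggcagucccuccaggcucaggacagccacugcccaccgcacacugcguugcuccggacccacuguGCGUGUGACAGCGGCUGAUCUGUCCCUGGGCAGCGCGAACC
Mir27a (chr8:84208672-84208758, plus strand, 2182 bp past Zswim4): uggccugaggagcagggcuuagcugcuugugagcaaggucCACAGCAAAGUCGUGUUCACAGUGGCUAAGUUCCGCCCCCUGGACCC
Mir130a (chr2:84741115-84741178, minus strand, 2489 bp past Ypel4): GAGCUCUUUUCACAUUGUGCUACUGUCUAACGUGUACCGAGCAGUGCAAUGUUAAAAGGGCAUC
Mir29c (chr1:195037547-195037634, plus strand, 1451 bp past Cd46): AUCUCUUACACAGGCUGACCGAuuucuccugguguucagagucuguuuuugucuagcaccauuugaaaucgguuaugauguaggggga
Mir200c (chr6:124718322-124718390, minus strand, 1407 bp past Phb2): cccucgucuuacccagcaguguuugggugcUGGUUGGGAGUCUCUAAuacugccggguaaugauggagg
Mir192 (chr19:6264844-6264932, plus strand, 2528 bp past Atg2a): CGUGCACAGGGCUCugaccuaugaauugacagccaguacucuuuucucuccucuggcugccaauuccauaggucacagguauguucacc
The distances run from the gene end to the midpoint of the peak. The peak at Mir130a held the whole hairpin, and the one at Mir200c lay inside its hairpin. The others covered one end, 47 bases of Mir27a, 41 of Mir210, 22 of Mir29c and 14 of Mir192. Peak positions are rounded in the files, to multiples of 8 bp between 67108864 and 134217728 bp and of 16 bp farther along, so the edges of the capitals are only that precise.

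The mature microRNAs that lay mostly inside a peak are printed with the seed, bases 2 to 8, in capitals. The seed is the part that pairs with target transcripts.
miR-210-3p: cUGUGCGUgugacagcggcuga
miR-27a-3p: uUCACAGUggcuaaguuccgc
miR-130a-3p: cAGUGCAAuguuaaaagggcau
miR-130a-5p: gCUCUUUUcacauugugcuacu
The peaks held 18 of the 22 bases of miR-210-3p, all 21 of miR-27a-3p and all 22 of both miR-130a arms. The 12 mature microRNAs of the 6 hairpins have 12 different seeds. miR-210 is the microRNA best known for induction by hypoxia, one of the pathways in the series title. Mir27a lies in a cluster with Mir23a and Mir24-2, and the miR-29 family is known to target the DNA methyltransferases Dnmt3a and Dnmt3b. The Mir210 peak covered 4 of the 8 CpGs of its hairpin, and the peaks at Mir27a and Mir130a covered both CpGs of theirs. The Mir200c peak covered none of its 2. Among the nearest genes, Zswim4 had 8 flank peaks, Rassf7 and Phb2 3 each, Ypel4 and Atg2a 2 each and Cd46 only the 1 at Mir29c.

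Flank peaks also fell at the starts of long non-coding RNA (lncRNA) genes. RefSeq start windows run from 250 bases before a start to 50 from it on, 300 bases in all. Of 620 lncRNA windows wholly in the flank, 44 (7.10%) were overlapped by a flank peak. With windows only partly in the flank, 49 peaks met windows of 49 lncRNA genes. Printed are the windows that hold a whole peak and whose nearest protein-coding gene has no peak in its body, chosen after their values were seen. Capitals again mark the peak.
A530013C23Rik (chr2:167690927-167691226, plus strand, peak 656 bp past Cebpb): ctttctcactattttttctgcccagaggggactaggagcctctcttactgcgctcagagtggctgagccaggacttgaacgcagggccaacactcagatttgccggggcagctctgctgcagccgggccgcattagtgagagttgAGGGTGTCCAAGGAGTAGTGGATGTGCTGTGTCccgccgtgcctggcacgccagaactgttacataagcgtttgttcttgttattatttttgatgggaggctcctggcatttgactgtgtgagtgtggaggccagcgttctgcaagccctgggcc
Gm40697 (chr10:75860660-75860959, plus strand, peak 547 bp upstream of Mif): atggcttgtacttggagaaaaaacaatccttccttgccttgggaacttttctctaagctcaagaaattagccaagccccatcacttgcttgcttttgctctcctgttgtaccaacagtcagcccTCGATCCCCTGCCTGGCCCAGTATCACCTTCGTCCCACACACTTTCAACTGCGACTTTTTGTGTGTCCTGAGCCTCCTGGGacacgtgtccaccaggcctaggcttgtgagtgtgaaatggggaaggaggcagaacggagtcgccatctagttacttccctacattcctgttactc
1700082M22Rik (chr8:104642350-104642649, plus strand, peak 656 bp upstream of Ciao2b): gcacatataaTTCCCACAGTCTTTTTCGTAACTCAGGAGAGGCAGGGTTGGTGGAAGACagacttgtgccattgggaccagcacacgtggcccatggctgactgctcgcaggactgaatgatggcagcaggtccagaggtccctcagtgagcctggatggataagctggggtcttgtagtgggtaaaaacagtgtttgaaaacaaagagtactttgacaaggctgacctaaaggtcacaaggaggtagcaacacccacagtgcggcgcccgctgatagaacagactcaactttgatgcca
Gm46406 (chr13:28945138-28945437, plus strand, peak 3537 bp past Sox4): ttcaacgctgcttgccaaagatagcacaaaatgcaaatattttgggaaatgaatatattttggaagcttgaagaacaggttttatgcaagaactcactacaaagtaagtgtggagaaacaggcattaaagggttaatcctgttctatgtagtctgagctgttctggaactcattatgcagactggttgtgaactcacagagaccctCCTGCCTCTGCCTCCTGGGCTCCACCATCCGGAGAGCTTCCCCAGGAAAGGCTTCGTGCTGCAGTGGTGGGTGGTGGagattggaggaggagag
Gm36194 (chr15:77418338-77418637, plus strand, peak 3689 bp past Apol7b): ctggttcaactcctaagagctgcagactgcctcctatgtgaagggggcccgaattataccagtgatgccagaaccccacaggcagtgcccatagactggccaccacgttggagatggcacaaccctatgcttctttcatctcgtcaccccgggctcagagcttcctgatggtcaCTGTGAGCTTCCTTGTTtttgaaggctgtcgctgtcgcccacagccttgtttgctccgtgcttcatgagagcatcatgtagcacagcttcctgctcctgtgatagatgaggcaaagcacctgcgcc
The Gm40697 peak held 3 of the 6 CpGs of its window, the Gm46406 peak 2 of 3 and the 1700082M22Rik peak 1 of 6. The A530013C23Rik peak held none of 10 and the Gm36194 peak none of 8. Over all 49 peaks the capitals had 2.80 CpGs per 100 bases (74 CpGs in 2639 bases). The rest of the same windows had 2.17, and the 576 flank windows without a peak had 2.05. Of the 49 peaks, 16 covered no CpG inside the window. The header sets an average fragment length of 200 bp, longer than the peak intervals, so the modified cytosine can lie outside the capitals.

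Flanks held about as many 5hmC peaks per Mb as whole gene bodies, fewer than the parts of bodies at the same distance from the gene end, and more than the sequence beyond them. The 122 Mb of flank, 5.08% of autosomal length, held 138 peaks per Mb (exact Poisson interval 136 to 140). Gene bodies held 136 per Mb (136 to 137), a ratio of 1.01 (0.996 to 1.03). At equal distances from the gene end the inside was denser: 227 per Mb (220 to 234) inside and 192 (185 to 199) outside at 500 to 1000 bp, and 214 (206 to 222) inside and 109 (103 to 115) outside at 4500 to 5000 bp. Overlapping genes were merged, and inside distances run from the nearest outer end of the merged stretch. Gene starts and ends that lie within another gene thus do not count as ends. Only stretches long enough to reach a distance count inside, and only gaps long enough count outside. Inside and outside thus rest on different sets of gene ends, and short genes that overlap no other add flank but little inside sequence. The part of gene length in the difference was not tested. The first 500 bp outside genes held 166 per Mb (160 to 172). The stretch from 5000 to 10000 bp held 98.2 (96.3 to 100), and sequence farther than 10000 bp from a gene 37.0 (36.7 to 37.4). The flank was thus 1.41 times as dense as the next 5000 bp (1.37 to 1.44) and 1.65 times as dense as all other autosomal sequence (1.63 to 1.68). Peak width did not separate these classes: the median was 65 bp with quartiles of 49 and 81 bp in the flank, inside genes and farther out.

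Upstream flanks were denser than downstream flanks close to the gene, and farther out the difference was within counting error. Strand came from the RefSeq start windows and was known for 16457 of 20560 autosomal genes. Of the 4103 without strand, 511 lie on chromosome 18. The flank peaks beside genes of known strand were 7114 upstream and 6238 downstream, an upstream share of 53.3% (Wilson interval 52.4 to 54.1%). Per Mb that was 140 upstream (137 to 144) and 134 downstream (131 to 137). At 500 to 1000 bp the upstream density was 217 per Mb (206 to 229) and the downstream density 167 (157 to 177), a ratio of 1.30 (1.20 to 1.41). At 1000 to 1500 bp the ratio was 1.12 (1.03 to 1.23), and from 1500 to 5000 bp it was 0.979 (0.939 to 1.02). In flanks of full length, where every gene end counts at every distance, these ratios were 1.41 (1.27 to 1.57), 1.25 (1.11 to 1.39) and 1.00 (0.955 to 1.05). With repeated lines kept, the upstream share was 55.8%. With lncRNAs and all other annotated genes used as genes too, it was 49.4% (48.6 to 50.2%), an interval that includes an even split. The share takes no account of the unequal lengths of the sides, 50.7 Mb upstream and 46.5 Mb downstream in the main set, and the densities above do.

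**Figure D1:**
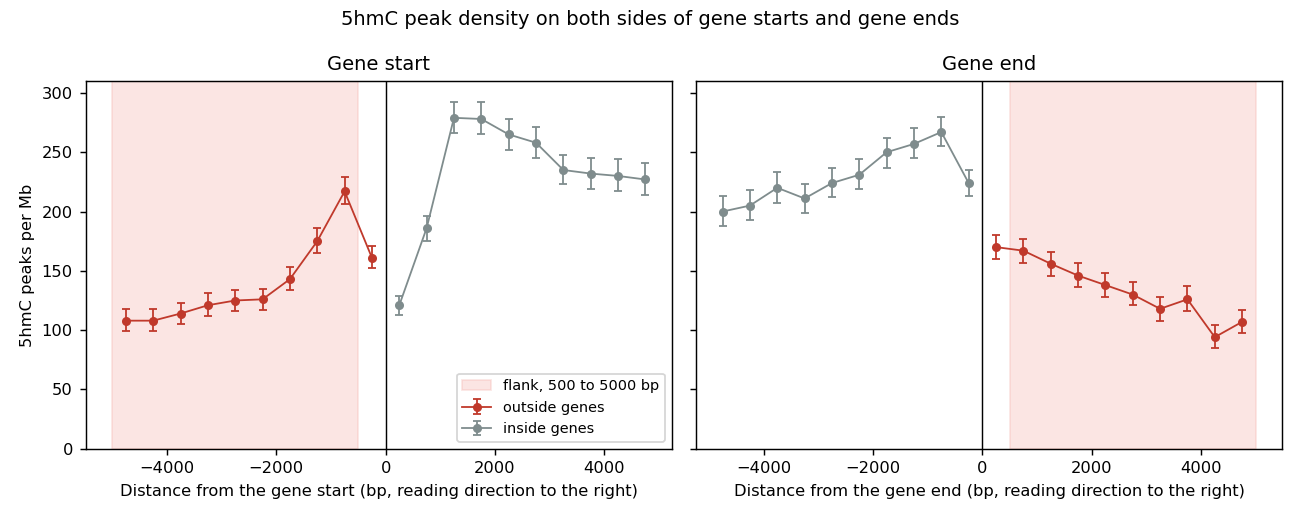
Peaks per Mb in 500 bp bins on both sides of gene starts (left) and gene ends (right) for genes of known strand, outside genes in red and inside in grey, with exact Poisson 95% intervals and the flank shaded. Overlapping genes are merged, and only starts and ends at the outer edge of a merged stretch count. Upstream density is 217 per Mb at 500 to 1000 bp and 161 in the 500 bp next to the start, while downstream density falls from 170 next to the gene end to 107 at 4500 to 5000 bp.

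The gene start sat in a local dip, while over all flanks the density fell outward across the gene end. Outside the start, density was 161 per Mb in the first 500 bp (152 to 171) and rose to 217 in the flank's first bin, and inside it was 121 (113 to 129) in the first 500 bp and 279 (266 to 292) at 1000 to 1500 bp. At the gene end the 500 bp inside held 224 per Mb (213 to 235), the 500 bp outside 170 (160 to 180) and the first flank bin 167. Farther inside, at 500 to 1000 bp from the end, it was 267 (255 to 280). In full-length flanks the densities next to the gene were lower, 137 (127 to 148) outside the start and 121 (111 to 132) outside the end, followed by 191 (179 to 204) and 135 (124 to 147) in the first flank bin. The intervals at the gene end overlap. Over all flanks the downstream density then fell to 94.1 (85.3 to 104) at 4000 to 4500 bp and 107 (97.2 to 117) at 4500 to 5000 bp. The upstream flank had come down to 108 (99.0 to 118) at that distance.

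The list itself treats the upstream side in a special way. The header names an upstream padding of 5000 bp for genes. Among flank peaks 12.4% of the upstream ones (885) stood on more than 1 line of the list, against 1.92% of the downstream ones (120). Each interval was counted once here. In gaps that reach 10000 bp from the gene end, the upstream density was 102 per Mb at 4500 to 5000 bp (91.6 to 113) and 97.3 at 5000 to 5500 bp (87.4 to 108), and downstream it was 104 and 97.1. On both sides these values differed by less than counting error. They describe the edge of the padding alone, while the upstream excess lay at 500 to 1500 bp, so they do not bear on that excess. The part of the padding in the upstream excess was not tested.

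The density of upstream peaks followed the CpG content of the gene start. For 8047 genes a RefSeq start window lies exactly at the outer start of the gene. Where it held 20 or more CpGs (both strands read alike, since CG is its own complement), the first 500 bp upstream had 125 peaks per Mb (105 to 148). The flank then had 330 (297 to 366) at 500 to 1000 bp, 302 (269 to 337) at 1000 to 1500 bp and 185 (175 to 196) from there to 5000 bp. With 10 to 19 CpGs the same 4 values were 215, 296, 206 and 149. With 3 to 9 CpGs the order turned, from 208 (181 to 238) in the first 500 bp to 161 (137 to 188), 125 and 104 in the flank. Starts with 0 to 2 CpGs had 22.7 in the first 500 bp and 43.1, 33.9 and 26.1 in the flank. A flank peak upstream was present at 46.7% of the genes with 20 or more CpGs, 37.3% with 10 to 19, 24.8% with 3 to 9 and 7.99% with 0 to 2.

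**Figure D2:**
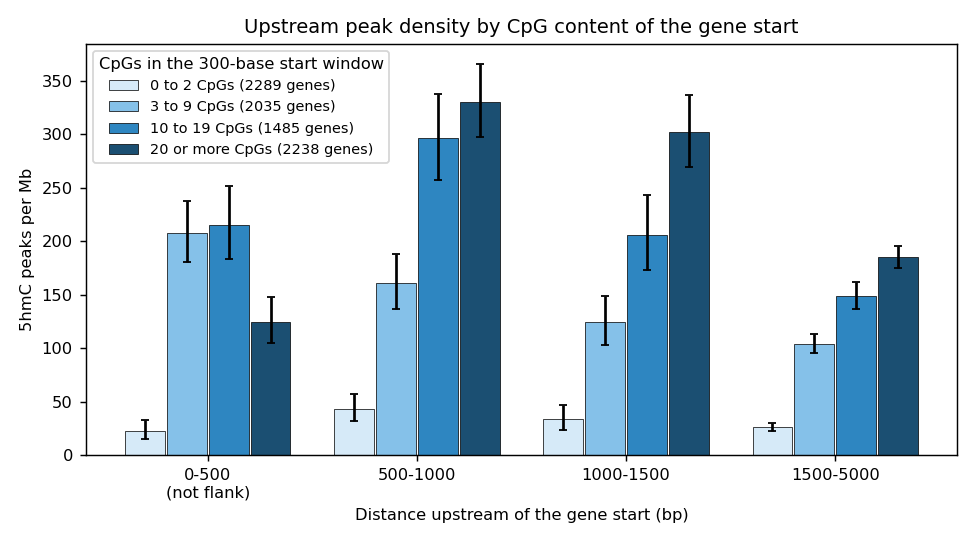
Peaks per Mb at 4 distances upstream of the gene start, in 4 classes of genes by the number of CpGs in their 300-base start window, with exact Poisson 95% intervals. The class with 20 or more CpGs goes from 125 per Mb next to the start to 330 at 500 to 1000 bp, and the class with 3 to 9 CpGs from 208 to 161.

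Genes with CpG-rich starts also had peaks in the body more often, 85.1% with 20 or more CpGs and 15.7% with 0 to 2. Among genes with a body peak alone, the classes came closer in the flank as a whole: 160 per Mb with 0 to 2 CpGs (139 to 184), 201 with 3 to 9 (187 to 216), 211 with 10 to 19 and 241 (230 to 253) with 20 or more. The shape near the start still differed between classes, though not in the order of CpG number. With 20 or more CpGs the density was 139 (116 to 164) in the first 500 bp and 370 (332 to 412) at 500 to 1000 bp, with 10 to 19 it was 234 (196 to 277) and 348 (301 to 401), and with 0 to 2 it was 122 (76.6 to 185) and 239 (173 to 324). With 3 to 9 it was 336 (288 to 390) and 269 (226 to 318), the one class with the lower value in the flank. Within the classes with 0 to 2 and 3 to 9 CpGs the intervals of both values overlap. The median start window of genes with an upstream flank peak (2286) held 18 CpGs (quartiles 7 and 27), and that of genes without one (5761) held 5 (1 and 17).

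Flank peaks were far more frequent beside genes that carried peaks in their body. Of 18975 autosomal genes with flank sequence of their own, 7838 (41.3%) were the nearest gene of at least 1 flank peak, and 13036 (68.7%) had a body peak. The other 1585 autosomal genes have both ends inside or close to other genes and no flank of their own. Genes without a body peak had 26.5 flank peaks per Mb (25.0 to 28.1). Among genes with body peaks, ordered by body peaks per kb, the flank density rose from 70.9 (67.4 to 74.5) in the lowest quartile class over 153 and 244 to 391 (381 to 400) in the highest. The bounds of these classes were 0.0930, 0.224 and 0.446 body peaks per kb. The density next to a gene thus rose with that inside it from class to class.

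The flanks of one gene also went together. Of 6047 genes with both flanks at full length and a known strand, 1577 had an upstream peak and 1505 a downstream one, and 851 had both. A downstream peak was present at 54.0% of the genes with an upstream peak and at 14.6% of those without. Flank peaks had another peak close by: the median distance to the next peak was 1104 bp, 46.5% had one within 1000 bp, and 10.0% had none within 5000 bp.

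Short gaps between genes held more flank peaks per Mb than long ones. Gaps of over 1000 to 5000 bp had 261 per Mb (247 to 275), those of over 5000 to 10000 bp 181, those of over 10000 to 50000 bp 137 and those of over 200000 bp 78.8 (73.9 to 83.9). In gaps shorter than 10000 bp each flank stops at the middle of the gap and lacks the longer distances. Density over all gaps was 192 at 500 to 1000 bp and 109 at 4500 to 5000 bp. The part of distance in the contrast of gap lengths was not tested. Where both genes start at the gap (head to head), gaps of over 10000 to 50000 bp had 160 per Mb (152 to 169), against 135 (126 to 143) where both genes end there (tail to tail) and 120 (116 to 124) where genes run the same way (tandem). In gaps of over 1000 to 5000 bp the 3 orientations had 267, 277 and 262, within counting error of each other. At over 5000 to 10000 bp they had 198, 194 and 166, and at over 50000 to 200000 bp 138, 108 and 109. At over 200000 bp the 3 orientations had 86.5, 84.6 and 81.9, within counting error of each other.

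**Figure D3:**
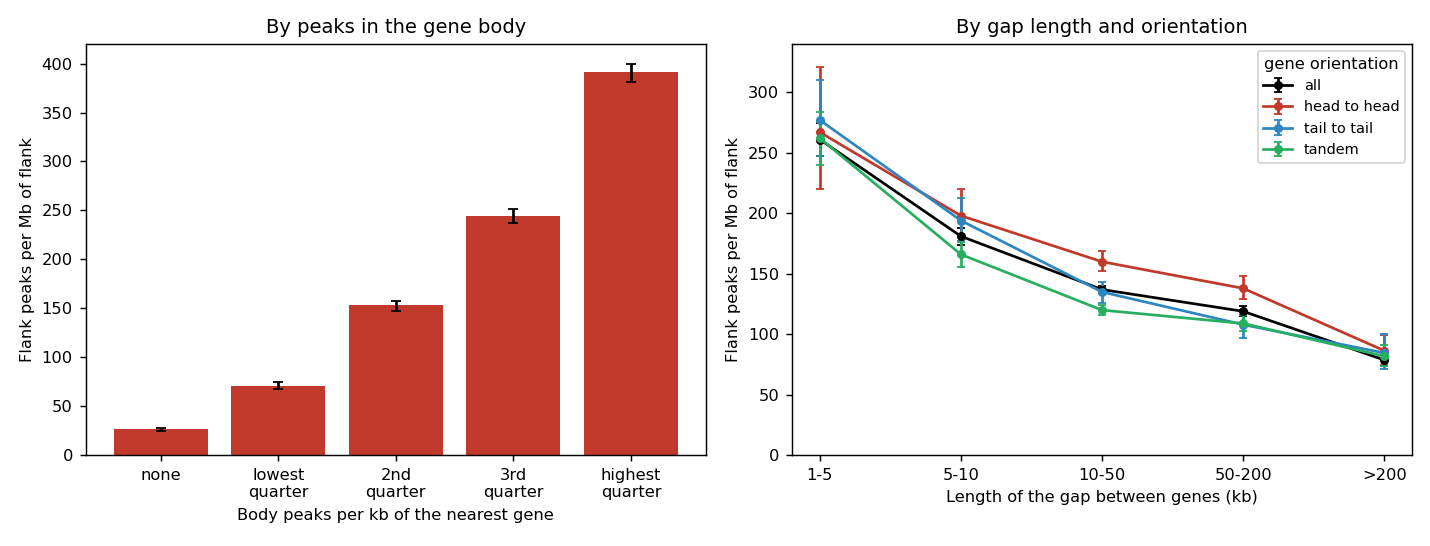
Flank peaks per Mb of flank, by the density of peaks in the body of the nearest gene (left, quartile classes of genes with a body peak) and by the length of the gap between neighbouring genes and their orientation (right), with exact Poisson 95% intervals. The left bars rise from 26.5 to 391 per Mb, and on the right the line for all gaps falls from 261 to 78.8.

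Chromosome 15 had the most flank peaks per Mb of flank (185, 173 to 198) and chromosome 7 the fewest (102, 96.2 to 108). On chromosome 7 the flank was 0.666 times as dense as gene bodies, and on chromosome 1 it was 1.37 times as dense. The flank was below the body on 8 of the 19 autosomes. Olfactory receptor genes (Olfr) had a flank peak at 41 of 1093 genes, or 4.56 peaks per Mb (3.28 to 6.16), and vomeronasal receptor genes (Vmn1r and Vmn2r) at 6 of 346, or 2.27 (0.913 to 4.68). These families were looked up after the values were seen. Their part in the low value of chromosome 7 was not tested.

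Most flank peaks, 14436 or 85.7%, lay in no annotated gene of any kind. The spans of lncRNA genes held 2125 (12.6%), at 175 per Mb of flank (168 to 183), and pseudogenes 271, at 170 (150 to 192). Flank sequence without any gene had 134 (131 to 136). The lncRNA gene with the most was A930015D03Rik (chr17:35994504-36038174), with 12 flank peaks over 43.7 kb. Gm34154 (chr8:70632563-70637910), a 5.35 kb lncRNA gene next to Gdf15, held 7.

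The most flank peaks beside 1 gene were 12. Gdf15 (chr8:70629393-70632470), a stress-induced cytokine, had 12 (exact Poisson interval 6.20 to 21.0), 7 upstream and 5 downstream, in 8.27 kb of flank, and 3 in its body. Irf8 (chr8:120736358-120756694), the transcription factor that directs monocyte and dendritic cell fate, also had 12, 5 upstream and 7 downstream, with 22 in the body. Klf13 and Rhoh had 11 each. With 10 each followed Tfdp1, a partner of E2F factors, B3gnt2, the myeloid transcription factor Cebpb, the ficolin Fcnb, the interferon regulator Irf1, the integrin chain Itgam and the kinase Sik1. Pik3cd, Il10ra, Ifitm6 and Actb had 9 each and were named before other genes with 9, such as H6pd and Dnajb12, for their higher number per kb of flank. Most genes had far fewer: 3690 had 1 flank peak, 1858 had 2, 1054 had 3, 1236 had 4 or more and 83 had 8 or more.

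Some of these genes had all their flank peaks on one side. Pik3cd (chr4:149649168-149702566), the leukocyte PI3-kinase catalytic subunit, had 9 upstream peaks in 4.50 kb, or 2.00 per kb, spread from 522 to 4778 bp before its start. Only its upstream flank is free of other genes, so no downstream value exists. Itgam had 7 upstream and 3 downstream peaks, and Cmip 7 and 1. Hjurp, Nek6 and the phosphatase gene Ptpn1 had 6 each upstream, also in 4.50 kb of flank. On the downstream side Rsl24d1 had 7 and none upstream, while B3gnt2, Dnajb12 and Fcnb had 7 with 3, 2 and 3 upstream. Brd2, a BET bromodomain gene, and Gm42166 had 6 downstream, and each has 4.50 kb of flank, the length of one side. Cebpb (chr2:167688915-167690432) is a single short gene of 1.52 kb with no peak in its body. Its 4 upstream peaks lay 851, 1315, 2243 and 3475 bp before the start, and its 6 downstream peaks lay 656, 1136, 1664, 2000, 2672 and 4672 bp past the end. One further peak lay within 500 bp of it.

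**Figure D4:**
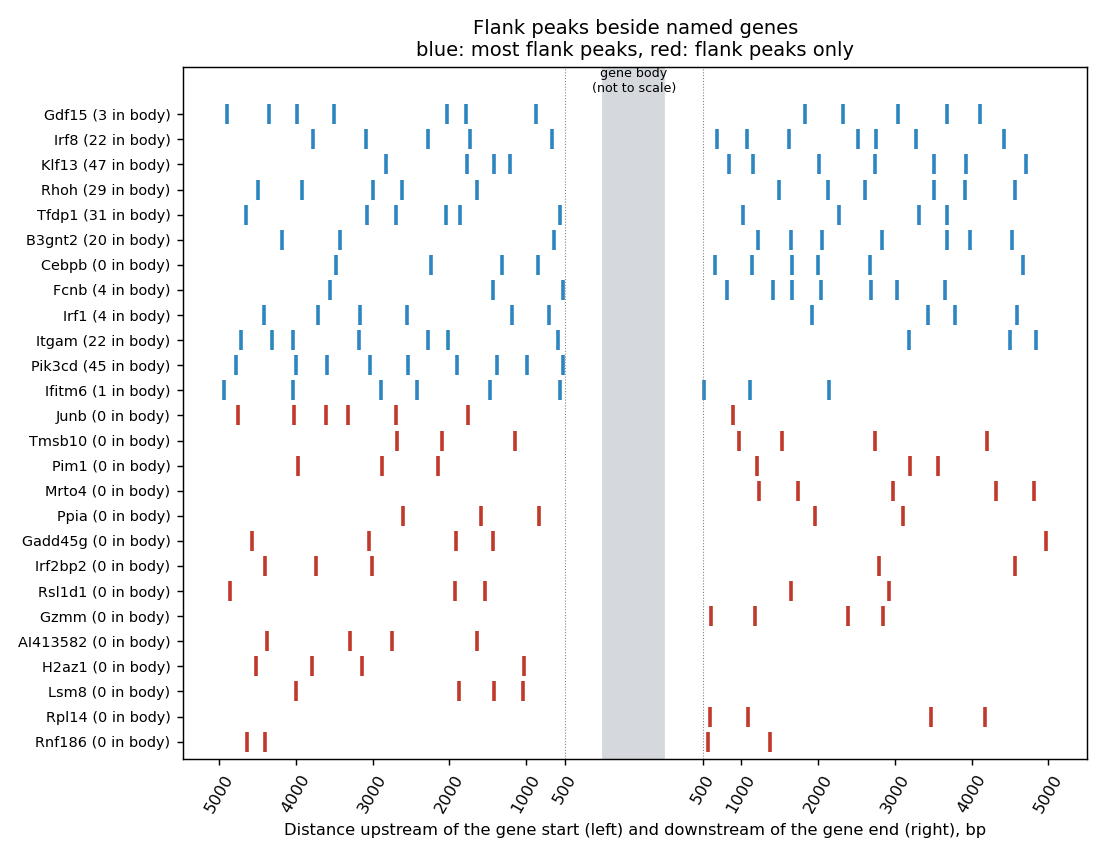
Positions of the flank peaks beside named genes of known strand, as distance upstream of the gene start (left) and downstream of the gene end (right), with the gene body drawn as a fixed grey block and the number of body peaks beside each symbol. Blue genes are among the 15 with the most flank peaks and red genes among the 15 with flank peaks only. Pik3cd has 9 upstream, the only side on which it has flank. Junb has 6 upstream and 1 downstream, and most of its 5.05 kb of flank lies upstream.

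The gaps with the most flank peaks held 12 or 11. The gap between Elof1 and Acp5, the tartrate-resistant acid phosphatase of osteoclasts and macrophages, is 9531 bp long (chr9:22117196-22126726), and its 12 peaks were divided 6 and 6 between the genes. The 240317 bp gap between Cebpb and Ptpn1 (chr2:167690433-167930749) also had 12, 6 past Cebpb and 6 before Ptpn1. The head-to-head gap of H6pd and Gpr157 had 12 as well, 7 and 5. The tail-to-tail gaps of Psma6 with Nfkbia, the NF-kB inhibitor, and of Tkt with Prkcd, a protein kinase C, had 11 each.

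For 687 genes the flank held the gene's only peaks: none in the body and none within 500 bp outside it. They are 3.62% of genes with flank sequence, 8.76% of genes with a flank peak, and 12% of the 5712 genes with no peak in the body or the 500 bp beside it. They had 1005 flank peaks in all. Most (486) had 1 flank peak, 123 had 2, 52 had 3, 18 had 4 and 8 had 5 or more. Their median span was 6.36 kb, close to the 6.00 kb of all 5939 genes without a body peak and below the 18.6 kb of all genes with flank sequence. Of the 573 with known strand, 252 had upstream peaks alone, 249 downstream peaks alone and 72 both. Their flank peaks faced a gene across the gap in 1002 cases, and in 744 of these (74.3%) that gene had peaks in its own body. That is a share of flank peaks, in which a gene can count more than once. Counted by gene, 68.7% of all genes with flank sequence had a body peak, so the 2 shares have different units.

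Junb (chr8:84976909-84978748), an AP-1 transcription factor, and Tmsb10 had the most flank peaks among these genes, 7 each. Those of Junb were 6 upstream peaks from 1756 to 4756 bp and 1 downstream at 893 bp. Junb has 5.05 kb of flank, and with a peak as far as 4756 bp upstream most of it lies on that side. The counts of its sides thus rest on unequal lengths and do not show a denser upstream side. Tmsb10 (chr6:72957347-72958748), an actin-binding thymosin, had 3 upstream and 4 downstream. Pim1 (chr17:29490785-29496111), a kinase gene induced by STAT5 downstream of FLT3-ITD, had 3 on each side. With 5 each followed Mrto4 and Rsl1d1, which act in ribosome biogenesis, Ppia, the cyclophilin A gene, the stress gene Gadd45g and Irf2bp2. Of the 18 genes with 4, those with the most per kb of flank were Gzmm, a granzyme of lymphocytes, the histone variant gene H2az1, Lsm8, Rpl14, Rnf139, Rnf186 and AI413582. Mrto4, Gzmm, H2az1, Rnf139 and AI413582 have at most 4.50 kb of flank, the length of one side. These counts are small, and the exact Poisson interval of Junb is 2.81 to 14.4 peaks.

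The share of genes with a flank peak was set out for 14 lists of genes, beside 41.3% of all autosomal genes with flank sequence. It was highest for genes of granulocytes and monocytes, common cells of marrow: 33 of 37 (89.2%), with a median of 0.592 flank peaks per kb against 0 over all genes. Irf8 had 12, Cebpb and Itgam 10 each, and Fcgr3, an Fc receptor, and Ncf4, a subunit of the phagocyte oxidase, 8 each. Cd68, Fcer1g, Klf4 and Mmp8 had none in the flank and 1, 5, 5 and 7 in the body, but Cd68 has only 0.281 kb of flank and Fcer1g 1.10 kb. Camp, the cathelicidin of neutrophil granules, had 4 flank peaks and Cd14, the lipopolysaccharide co-receptor, 3, and both had flank peaks only. The density of this list was 585 per Mb of flank (493 to 689), against 138 over all genes.

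**Figure D5:**
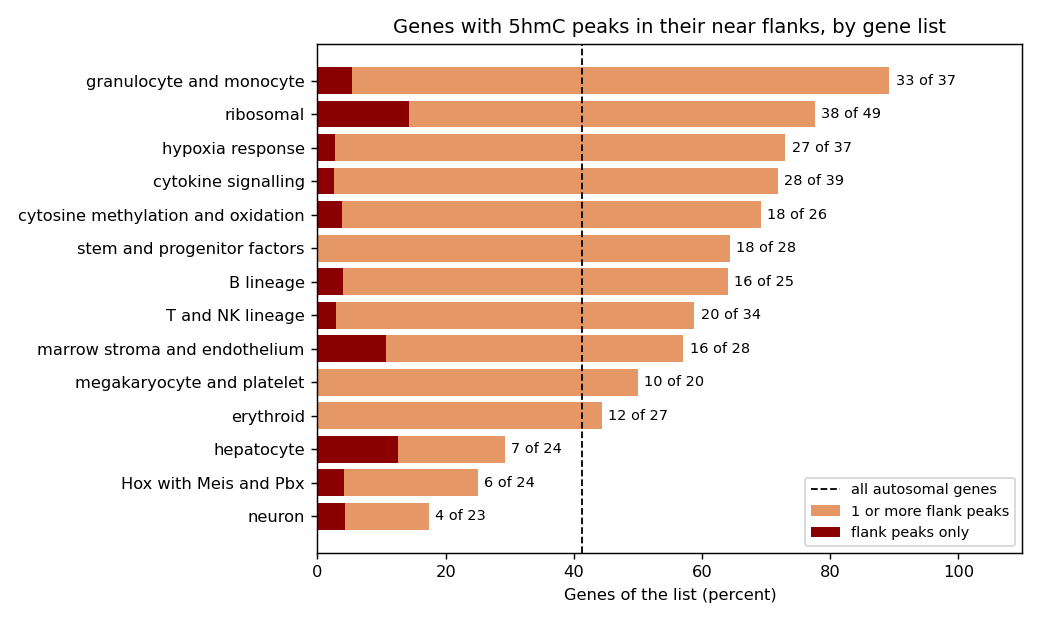
Percent of the genes of each list with 1 or more flank peaks (light bars) and with flank peaks only (dark bars), with the counts beside the bars. The dashed line is the 41.3% of all autosomal genes with flank sequence; granulocyte and monocyte genes reach 89.2% and neuron genes 17.4%.

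Ribosomal protein genes had a flank peak at 38 of 49 (77.6%) and flank peaks only at 7 (14.3%, against 3.62% over all genes). Those 7 were Rpl14 and Rps16 with 4 each, Rps13 with 3, and Rplp2, Rpl27, Rps6 and Rpl30 with 1 each. They are short, 2.01 to 3.71 kb against a median of 18.6 kb over all genes with flank sequence. A short body has less room for a peak, and the part of length in this share was not tested. The next highest shares with flank peaks only were 12.5% of the hepatocyte list and 10.7% of the marrow stroma and endothelium list. Rps10 had 5 in the flank and 3 in the body. Genes of cytokine signalling had a flank peak at 28 of 39 (71.8%). Pik3cd led them with 9, followed by the Janus kinase Tyk2 with 7, and Cish, an inhibitor of STAT5 signalling, the survival gene Mcl1 and Pim1 with 6 each. Stem and progenitor factors had one at 18 of 28 (64.3%) and flank peaks only at none. Ikzf1 and Runx3 had 8 each, and Zfpm1 and Lmo2 6 each.

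Hypoxia response genes, a pathway of the series title, had a flank peak at 27 of 37 (73.0%), with a median of 0.222 per kb. Ndrg1, the glucose transporter gene Slc2a1 and Vegfa, the endothelial growth factor, had 5 each, and the glycolytic genes Aldoa and Ldha 4 each. Adm, the adrenomedullin gene, had 2 upstream peaks and no others. Hif1a had 1, upstream. Genes that methylate or oxidise cytosine, with their readers, had one at 18 of 26 (69.2%). The maintenance methyltransferase Dnmt1 had 6, 2 upstream and 4 downstream. Gadd45b and the methyl-CpG reader Mbd2 had 5 each, and the oxidase Tet3 4. Gadd45a had 2 upstream peaks and no others.

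The Hox genes with Meis and Pbx cofactors, the other pathway of the title, had a flank peak at 6 of 24 (25.0%), or 66.6 per Mb of flank (28.8 to 131). Hoxb1 had 3, all downstream. Hoxa7, Hoxb2, Pbx4, Pknox1 and Meis3 had 1 each, and that of Hoxb2 was its only peak. Hoxa9 had none in the 3.17 kb of flank it has and Meis1 none in 9 kb, where a count of 0 allows up to 3.69 peaks by the exact Poisson interval. Meis1 had 6 in its body.

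B lineage genes had a flank peak at 16 of 25 (64.0%) and T and NK lineage genes at 20 of 34 (58.8%). Bach2 and Foxo1 had 5 each, with 172 and 41 in the body, and Igll1, a surrogate light chain gene, 4. Vpreb2, the other kind of surrogate light chain gene, had 1 flank peak and no others. Among T cell genes Cd2 had 6, and Cd5 had 4, which lay upstream. Ptcra, the pre-T-cell receptor alpha chain, had 3 and no others. Megakaryocyte and platelet genes had one at 10 of 20 (50.0%), with 5 at Gp5 and 4 at Fli1. Erythroid genes were near the share of all genes at 12 of 27 (44.4%), with 4 at Rhd and 3 each at Epb41 and Tfrc.

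The neuron and hepatocyte lists were below the share of all genes, and the stroma list was above it. Neuron genes had a flank peak at 4 of 23 (17.4%), or 30.8 per Mb (10.0 to 72): Slc32a1 had 2, and Tubb3, Camk2a and Nefl 1 each. Hepatocyte genes had one at 7 of 24 (29.2%), or 95.4 per Mb (54.5 to 155), an interval that includes the 138 over all genes. Hp led them with 5, followed by Ass1 with 4, and G6pc, Hpx and Fgb had flank peaks only. Of the genes of marrow stroma and endothelium, 16 of 28 (57.1%) had one, at 135 peaks per Mb of flank (91.0 to 192) against 138 over all genes. Spp1, the osteopontin gene that macrophages also express, had 4, and Nes and Foxc1 2 each, with no other peak at any of the 3. Peaks of 5hmC are not expression and do not show which cells of the marrow carried them. Genes are not replicates, so these shares describe this list of peaks.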

How the data were processed

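5hmC was mapped by glucosylation, biotin capture and paired-end sequencing of bone marrow DNA. The deposited files give start and end positions only, in bp, with no other value. Per the file headers, the authors called peaks with PICS (read length 99 bp, fragment length 200 bp, windows of 250 bp, at least 3 reads on each strand in a window and 10 in a region). The build, mm10, is from the submitters' processing notes, and no source used here names the aligner. Depth is unknown.

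Genes were the 21779 protein-coding spans of a RefSeq table (GRCm38.p6), leaving out, except on Y, models that begin in the first 3 Mb. Repeated lines were counted once. Each class's length was measured from the gene spans, so no random placement was used, and the calculation was checked on made-up genes of known layout. Each flank peak went to the gene with the nearest end. Named genes were those with the most flank peaks, in all and per side, among genes with flank peaks only and per list. The members and gene lists were chosen with earlier results of these data known. Intervals are exact Poisson, Wilson or exact rate-ratio intervals (Python 3.11.15, scipy 1.17.1). Alternatives changed the repeated lines, annotation, bounds, chromosomes, position range, peak placement and gene assignment.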

Additional observations from a re-analysis of the deposited data

How the results depend on the processing

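Of 61 values under 12 alternatives, 35 stayed within 1.5 times (counts) or within the interval of the reported value. Leaving out either replicate gave 16842 flank peaks, 138 per Mb, a ratio of 1.65, an upstream share of 53.3%, 7838 genes with a flank peak and 687 with flank peaks only, because both files hold one and the same list; these 12 of the 61 values carry no information on stability. Peaks per Mb of flank were 149 with repeated lines kept, 103 with all annotated genes, 130 from 1000 bp on, 160 up to 2500 bp, 129 with X and Y, 120 at positions below 67108864 bp, 136 with whole intervals in the flank and 125 in full-length flanks. The ratio to other sequence was 1.21, 1.54, 1.90, 1.70, 1.70, 1.62 and 1.48 under the same alternatives from all annotated genes on, and stayed above 1 throughout. The upstream share was 55.8% with repeated lines, 54.2% at low positions, 51.5% with every gene in range and 55.5% in full-length flanks. With all annotated genes it was 49.4% (48.6 to 50.2%), an interval that includes an even split; the cause was not tested. Fewer bases were searched up to 2500 bp (9588 flank peaks, 412 genes with flank peaks only) and at low positions (6851, with 3309 genes with a flank peak and 305 with flank peaks only). With all annotated genes 2127 had flank peaks only, over more genes. The full-length alternative was chosen after seeing the data. No paired analysis was possible because only 1 group has peak lists.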
